A study of Homo sapiens with 4 samples.

Results

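Intronic enhancers were examined as a class of H3K27ac peaks, grouped by the protein-coding gene in whose introns they lie. A peak was counted as an intronic enhancer if its nearest edge was over 2.5 kb from every start site of a basic GENCODE transcript, and if its midpoint was in an intron of a protein-coding gene and in no exon of any gene. The gene whose intron holds the midpoint is called its host. Of the 43353, 46330 and 44920 peaks on chromosomes 1 to 22 and X in the lists labelled MDA-MB-231 replicate 2, Hs578T replicate 1 and Hs578T replicate 2, 13522, 14911 and 14449 were intronic enhancers. Values are given in this order of lists throughout.

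Both are established human lines of triple-negative breast cancer with mesenchymal features, and per the labels all samples of both lines had been serum-starved for 8 h, received TWEAK at 10 ng/ml for 48 h and were then kept without it for 72 h, while the published account states a longer time off the cytokine. TWEAK is a cytokine of the tumour necrosis factor family and acts through the receptor Fn14. All groups carried the same treatment, so neither an effect of TWEAK nor of its removal is described. The library labelled MDA-MB-231 replicate 1 held 209 peaks, 85 of them intronic, and was not used, which leaves 1 list for that line. Lists are named by their labels. A peak of Hs578T replicate 1 overlapped 92.6% of intronic enhancers of the MDA-MB-231 list and 90.4% of those of Hs578T replicate 2, and a peak of Hs578T replicate 2 overlapped 89.3% and 85.4% of those of the MDA-MB-231 list and Hs578T replicate 1. Taken from the Hs578T lists, overlap was higher within the line (85.4% and 90.4%) than with the MDA-MB-231 list (81.0% and 82.6%). Among mesenchymal markers, VIM, CD44, AXL, SNAI2, ZEB1 and FN1 (6 of 7, CDH2 being the exception) carried a promoter peak in each of the 3 lists, compared with 1 of 7 luminal and epithelial markers (GRHL2), 0 of 5 blood markers and 1 of 3 neuronal markers (SYT1), and the endothelial marker PECAM1 (1 of 3) was marked in 2 lists. The luminal and epithelial panel was not complete. In the longer list of 16 such genes used below, 6 carried a promoter peak in all 3 lists, namely GRHL2, EPCAM, KRT8, KRT18, CLDN4 and XBP1. With 3 lists an exact two-sided sign permutation cannot give a p below 0.25, so no test between lists was made. Sequencing depth is unknown, and the 95% Wilson intervals given on shares cover counting error only.

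H3K27ac is the acetylation of lysine 27 of histone H3, a mark laid down by p300 and CBP at promoters and enhancers in use. Enhancers are stretches of regulatory DNA that bind transcription factors and act on promoters over distance by looping, and many lie inside genes. An enhancer in an intron may act on its host, on a neighbour or on both, so that the host is a position and not a target. AP-1 is a family of dimers of JUN, FOS, ATF and MAF proteins that binds the sequence TGAGTCA and is active in mesenchymal cancer cells, often beside the TEAD factors of the Hippo pathway.

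To show what these elements look like, 200 bases of 5 of them are printed from the plus strand of hg38, all within sequence that was covered by a peak in each of the 3 lists. The first 3 come from the intronic enhancers with the highest fold enrichment, in the hosts NT5C2 (chr10:103229826-103230025), LIPA (chr10:89351757-89351956) and NFATC2 (chr20:51532443-51532642). The enhancer in LIPA is also in an intron of IFIT3. In NT5C2 and LIPA the intron belongs to transcripts other than the Ensembl canonical one. The other 2 come from the strongest intronic enhancers of FRMD4A (chr10:13882206-13882405) and TMEM132D (chr12:129571069-129571268), which were among the 3 hosts with the most such regions whose own promoter was unmarked. Capitals mark TGAGTCA or its complement TGACTCA.
NT5C2: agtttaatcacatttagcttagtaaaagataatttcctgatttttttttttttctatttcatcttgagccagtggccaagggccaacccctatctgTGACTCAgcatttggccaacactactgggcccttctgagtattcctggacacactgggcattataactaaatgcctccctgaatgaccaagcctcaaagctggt
LIPA: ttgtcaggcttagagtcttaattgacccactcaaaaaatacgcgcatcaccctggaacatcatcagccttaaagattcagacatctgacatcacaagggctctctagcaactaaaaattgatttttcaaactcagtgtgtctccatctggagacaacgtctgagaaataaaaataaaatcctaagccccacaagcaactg
NFATC2: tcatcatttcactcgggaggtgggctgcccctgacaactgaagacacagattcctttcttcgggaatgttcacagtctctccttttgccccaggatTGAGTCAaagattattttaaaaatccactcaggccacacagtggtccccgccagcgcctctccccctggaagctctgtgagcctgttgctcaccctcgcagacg
FRMD4A: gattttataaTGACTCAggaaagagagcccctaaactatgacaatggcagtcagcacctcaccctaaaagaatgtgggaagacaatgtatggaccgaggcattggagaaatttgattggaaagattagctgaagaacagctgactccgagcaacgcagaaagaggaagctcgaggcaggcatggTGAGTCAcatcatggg
TMEM132D: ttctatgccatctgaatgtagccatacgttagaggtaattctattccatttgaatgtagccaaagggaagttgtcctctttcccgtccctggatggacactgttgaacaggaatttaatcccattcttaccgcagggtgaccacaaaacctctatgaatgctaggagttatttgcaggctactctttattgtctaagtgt
The windows were placed where the motif was densest, so its presence in them is no finding. The FRMD4A window held 2 copies, those of NT5C2 and NFATC2 held 1, and the parts of the LIPA and TMEM132D enhancers covered in all 3 lists held none. Of 10 windows chosen by the same rule, 7 held the motif.

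Intronic enhancers made up 31.2% (95% Wilson interval 30.8 to 31.6%), 32.2% (31.8 to 32.6%) and 32.2% (31.7 to 32.6%) of all peaks in the 3 lists. They were 49.8%, 50.3% and 50.3% of the peaks over 2.5 kb from every start site. Median width was 1246, 1253 and 1213 bp, and together they covered 23.3, 26.3 and 24.5 Mb. The deposited fold enrichment, which is relative to the local background of the same library and was not compared in size between lists, had a median of 4.59, 4.16 and 4.14. Within each list this was below the median of distal peaks outside protein-coding introns and exons (4.89, 4.57 and 4.49) and of promoter peaks (8.43, 7.47 and 6.44). At the edge of the distance rule, 344, 369 and 363 intronic enhancers lay between 2.5 and 3 kb from a start site, with a median fold enrichment of 4.60, 3.88 and 3.75, and 345, 371 and 371 intronic peaks between 2 and 2.5 kb were left out by it, with medians of 4.38, 3.95 and 4.19.

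Joining intronic enhancers that overlapped by at least 1 bp gave 17439 regions, of which 11010 (63.1%) were called in all 3 lists. A further 1359 regions were called in both Hs578T lists alone. The MDA-MB-231 list shared 761 regions with the first Hs578T list alone and 423 with the second. The remaining regions were called once, 964 of them in the MDA-MB-231 list and 1615 and 1307 in the Hs578T lists. Overlap followed strength in each pair of lists. Among the strongest 20% of intronic enhancers by q-value, between 99.96% and 100% overlapped a peak of another list. Among the weakest 20% the share ranged from 37.4% of Hs578T replicate 1 in MDA-MB-231 replicate 2 to 72.1% of MDA-MB-231 replicate 2 in Hs578T replicate 1, and between the Hs578T replicates it was 47.6% and 62.4%. The strongest 20% were also wider, with medians of 2968, 3019 and 2935 bp compared with 607, 591 and 584 bp in the weakest 20%. Wider peaks overlap more readily at 1 bp, and width was not taken into account. The strongest shared region of the class lay in NT5C2, a cytosolic nucleotidase, at chromosome 10, 103228030 to 103234674, with fold enrichments of 38.4, 44.7 and 37.5. Those next in rank lay in introns of LIPA and IFIT3, NFATC2, PPM1H, UQCC1, VAV1, VMP1, FRMD4A, PXDN and ERGIC1, and the lowest of their values over the lists ranged from 33.3 at ERGIC1 to 36.5 at LIPA. The region in UQCC1, which encodes an assembly factor of respiratory complex III, was the widest of these at 30621 bp (chromosome 20, 35300917 to 35331537). Its nearest start site marked in all 3 lists belonged to EIF6 at 31.5 kb.

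Host genes were counted next. Of 16913 protein-coding genes with intronic sequence that met the distance rule, 5269 (31.2%) hosted an intronic enhancer in MDA-MB-231 replicate 2, 5602 (33.1%) in Hs578T replicate 1 and 5484 (32.4%) in Hs578T replicate 2. In all 3 lists 4750 genes (28.1%) were hosts, and in any list 6169. Hosts had a median of 2 peaks in each list, and 49.0%, 48.3% and 48.2% of them held 1. The distribution had a long tail: 192, 231 and 220 hosts held at least 10 peaks, and 17.6%, 16.9% and 17.2% of hosts held 50% of the peak assignments. Few peaks, 3.99%, 3.99% and 4.03%, had more than 1 host. Counts per host were close between lists. Across the 6169 genes, which share their intron lengths in every list, Spearman's rho was 0.824 and 0.823 between MDA-MB-231 replicate 2 and the Hs578T lists and 0.846 between the Hs578T lists, and counts differed by at most 1 peak in 90.9%, 91.5% and 92.5% of genes.

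The gene with the most regions called in all 3 lists was FRMD4A (chromosome 10, 13643706 to 14462142, minus strand), which encodes a FERM domain scaffold protein of cell junctions. It held 34, 40 and 40 peaks, and 30 regions were shared. Its strongest region, in canonical intron 2 at 450 kb from the canonical start site, had fold enrichments of 36.8, 40.3 and 33.9 and contains the window printed above. RAD51B, a gene of homologous recombination (chromosome 14, 67819779 to 68730218), had 32, 34 and 33 peaks and 27 shared regions. Of its regions, 12 lay only in introns of transcripts other than the canonical one. KAZN, which encodes the junctional protein kazrin (chromosome 1, 13892792 to 15118043), had 27, 30 and 32 peaks and also 27 shared regions. In EXT1, a glycosyltransferase of heparan sulphate synthesis (chromosome 8, 117794490 to 118111826), 33, 29 and 32 peaks formed 24 shared regions, more per length of intron (7.78 per 100 kb) than in any of the other 9 genes of this rank.

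FOXP1, a forkhead transcription factor (chromosome 3, 70954693 to 71583978), had 25, 30 and 28 peaks and 24 shared regions. ENSG00000285708, a gene without a symbol that overlaps FOXP1 on the same strand, also had 24, and every one of them was in an intron of FOXP1 too, so these are 1 set of regions counted for a pair of genes. The remaining hosts of the top 10 were DST, a cytoskeletal linker of the plakin family (26, 23 and 24 peaks), ARHGAP26, a GTPase-activating protein (24, 29 and 25), PALLD, which encodes the actin-binding protein palladin (25, 26 and 26), and MAML2, a co-activator of Notch (22, 24 and 23). In none of these 10 genes did the count of any list differ from that of another by more than 6. All 10 were long, with 308 to 1155 kb of eligible intron, compared with a median of 22.9 kb over all genes.

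**Figure D1:**
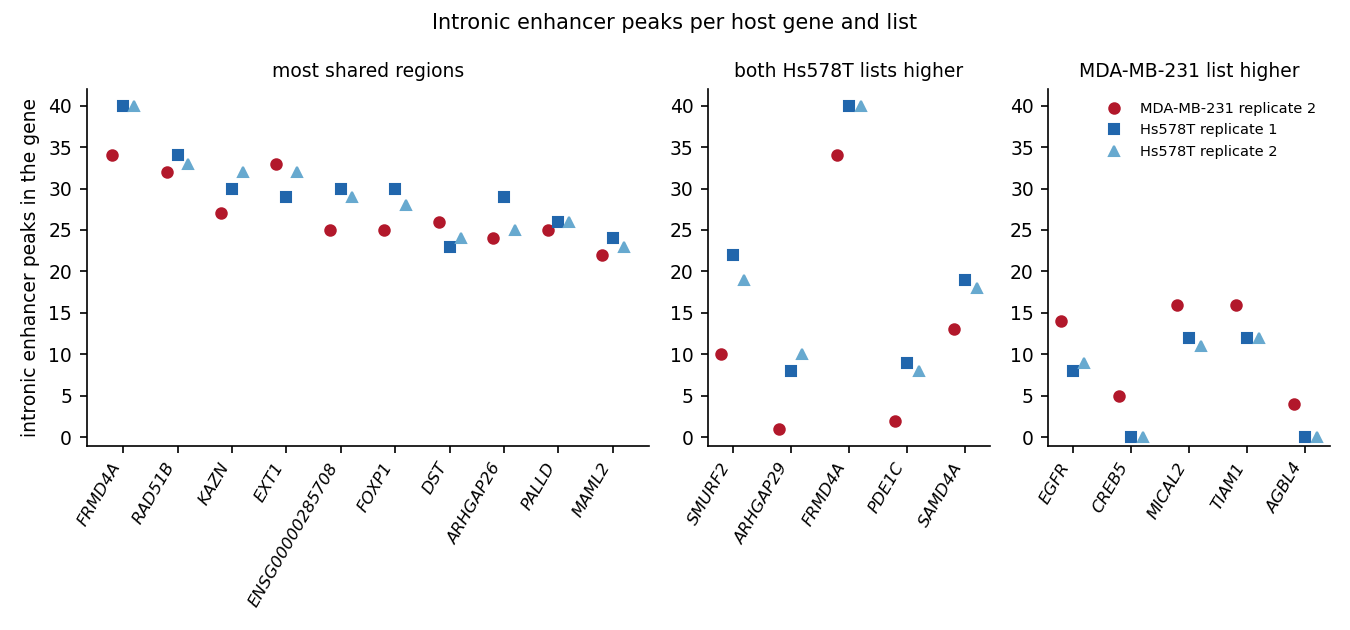
Intronic enhancer peaks (y axis, count) per host gene (x axis) in each of the 3 lists (symbols), for the 10 hosts with the most regions called in all 3 lists, the 5 in which both Hs578T lists exceed the MDA-MB-231 list by the most, and the 5 with the reverse. FRMD4A has the highest counts, 34, 40 and 40, whereas CREB5 and AGBL4 have 5 and 4 peaks in the MDA-MB-231 list and 0 in the Hs578T lists.

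Relative to intron length, other genes led. Among hosts with at least 5 shared regions, HDAC5, a class II histone deacetylase (chromosome 17, 44076746 to 44123702), had 6 peaks in each list and 17.8 shared regions per 100 kb. RARRES1, a retinoid-responsive gene, held 5 peaks in each list, or 16.0 regions per 100 kb, with no peak at its own promoter in any list. SLC25A37, which encodes the mitochondrial iron carrier mitoferrin, also held 5 in each list (12.6 regions per 100 kb). PRTFDC1 had 14, 12 and 13 peaks (12.3) and PDLIM1, an actin-associated PDZ and LIM domain protein, 7, 6 and 7 (12.1). In these 5 genes the lists differed by at most 2 peaks.

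Hosts in which a list stood apart were few. In 17 genes MDA-MB-231 replicate 2 had at least 3 peaks more than both Hs578T lists, and in 54 it had at least 3 fewer. For comparison, Hs578T replicate 1 exceeded both other lists in 38 genes and fell below them in 6, and Hs578T replicate 2 did so in 15 and 9, so that a list standing apart was not limited to the line with a single list. The largest gap was at SMURF2, a ubiquitin ligase that acts on TGF-beta receptors and SMADs, with 10 peaks in the MDA-MB-231 list compared with 22 and 19 in the Hs578T lists. Most of these peaks were weak, with median fold enrichments of 2.72, 2.64 and 2.87. ARHGAP29, another GTPase-activating protein, had 1, 8 and 10 peaks, with the highest fold enrichments at 2.95, 2.73 and 2.94. At PDE1C, a cyclic nucleotide phosphodiesterase, 2, 9 and 8 peaks were called, with the highest at 5.24, 7.98 and 7.60, and SAMD4A, an RNA-binding protein, had 13, 19 and 18.

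In the opposite direction, EGFR, the epidermal growth factor receptor (chromosome 7, 55019017 to 55211628), had 14 peaks in the MDA-MB-231 list compared with 8 and 9 in the Hs578T lists. These covered 45.2 kb compared with 37.9 and 30.9 kb, a smaller gap than that of the counts, and the strongest peaks had fold enrichments of 26.4, 21.7 and 16.4. MICAL2, an actin-oxidising enzyme, had 16, 12 and 11 peaks and its peaks covered 61.9 kb in the MDA-MB-231 list, more than in Hs578T replicate 1 (49.4 kb) and less than in Hs578T replicate 2. TIAM1, an exchange factor for Rac, had 16, 12 and 12. CREB5, a factor of the ATF family, held 5 peaks in MDA-MB-231 replicate 2 and none in the Hs578T lists, and AGBL4, a carboxypeptidase of the tubulin deglutamylase family, held 4 and none. The peaks of CREB5 had fold enrichments of 2.82 to 3.92 and those of AGBL4 of 2.89 to 4.36. With 1 list of that label, there is no spread between lists of that line to hold these differences against, and each set of genes was chosen for its difference.

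Position within the host was described with the Ensembl canonical transcript. In canonical intron 1 there were 3659, 4038 and 3916 peaks and in later introns 9507, 10511 and 10189. Intron 1 accounted for 27.8% of these peaks in each list and for 22.2% of the eligible sequence. Its density was 16.6, 18.4 and 17.8 peaks per Mb compared with 12.3, 13.6 and 13.2 in later introns, a ratio of 1.35 in each list. Density decreased from intron 1 to intron 2 (14.5, 16.0 and 15.7 per Mb), lay between 12.2 and 13.9 in introns 3 to 5, and was lowest beyond intron 10 (10.9, 11.9 and 11.6). Median fold enrichment was 4.64, 4.22 and 4.25 in intron 1 and 4.57, 4.12 and 4.10 in later introns. Another 6.62%, 6.43% and 6.45% of assignments fell in introns of other transcripts of the host, most of them upstream of the canonical start site (697 of 934, 749 of 1000 and 733 of 972).

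First introns lie nearer to the start site, so the comparison was repeated at like distances. With later introns weighted to the distances of intron 1, the ratio was 1.25, 1.23 and 1.23. In MDA-MB-231 replicate 2 it was 1.47 at 5 to 10 kb, 1.42 at 10 to 20 kb and 1.26 at 20 to 50 kb, and it was 1.07 at 50 to 100 kb and 0.923 beyond. When restricted to genes that were hosts in all 3 lists, the standardised ratio was 0.903, 0.928 and 0.900, so its direction depended on which genes were counted. That restriction selects genes by the peaks themselves.

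The ratio was also computed apart for genes with and without a marked promoter. A promoter was called marked if a peak lay within 1 kb of any basic start site of the gene. For genes marked in all 3 lists, intron 1 held 25.1, 27.5 and 26.9 peaks per Mb and later introns 16.4, 18.2 and 17.7, ratios of 1.53, 1.51 and 1.52, and a mean ratio of 1.46 over the lists at like distances. Beyond 100 kb from the start site the ratio in these genes was still 1.54, 1.51 and 1.53. For genes unmarked in all 3 lists, intron 1 held 5.37, 6.16 and 5.73 per Mb and later introns 5.87, 6.39 and 6.15, ratios of 0.915, 0.964 and 0.931, and 0.786, 0.840 and 0.811 at like distances. In each list intron 1 was thus denser than later introns in marked genes and not in unmarked genes, and the difference between these sets of genes was not tested.

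**Figure D2:**
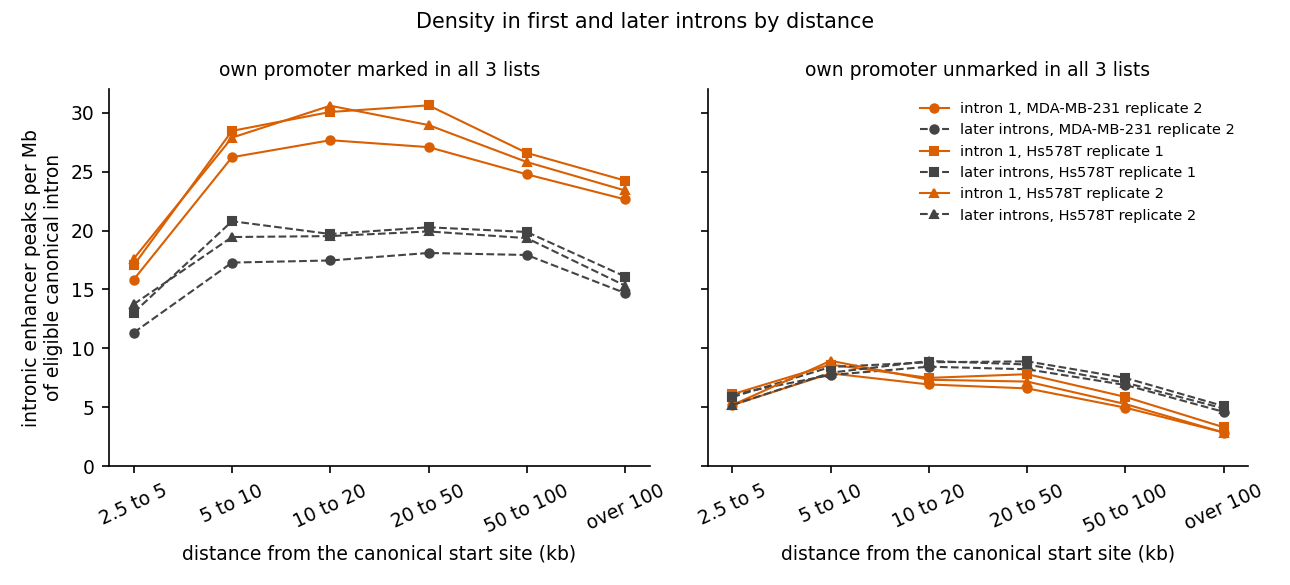
Intronic enhancer peaks per Mb of eligible canonical intron (y axis) by distance from the canonical start site in kb (x axis), for intron 1 (solid lines) and later introns (dashed lines) in each of the 3 lists (symbols), in genes with a promoter marked in all 3 lists (left) and unmarked in all 3 lists (right). In marked genes intron 1 lies above later introns at every distance, whereas in unmarked genes it lies below them at every distance over 10 kb.

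Single hosts differed widely in this respect. In EXT1, 22 of 24 shared regions were in intron 1, which is 273 kb long. In MAML2 this held for 18 of 20, in EFNA5, which encodes an ephrin, for 16 of 19, in ABTB2 for 13 of 14 and in KAZN for 11 of 27, all with first introns of 152 to 361 kb. At the other end, FRMD4A, FOXP1, DST and PALLD had 26, 24, 21 and 20 shared regions in later introns and none in intron 1, which spans 0.413, 1.87, 0.587 and 14.2 kb in these genes. In FRMD4A, FOXP1 and DST intron 1 is shorter than the 2.5 kb distance from a start site. The rule thus left little or no room for a region there. In FRMD4A 4 and in KAZN 14 further regions lay in introns of other transcripts only.

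**Figure D3:**
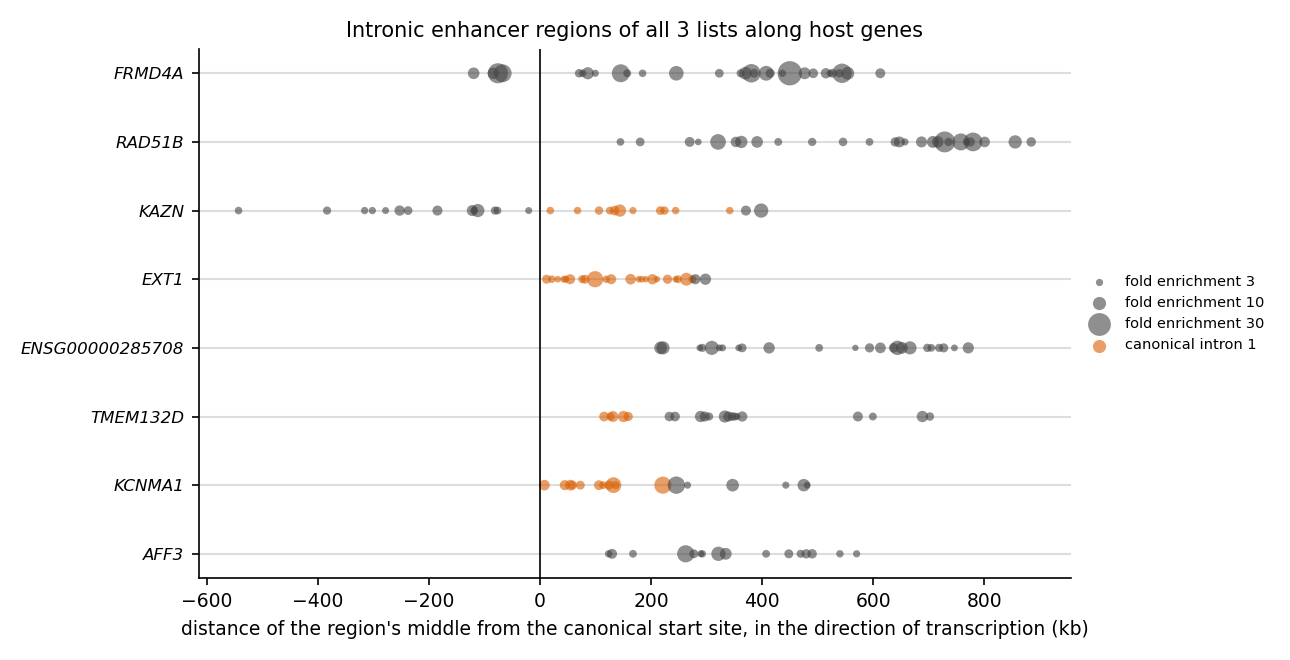
Regions called in all 3 lists along 8 host genes, by distance of the region's middle from the canonical start site in the direction of transcription (x axis, kb). Each point is a region, with an area in proportion to its lowest fold enrichment over the 3 lists, in orange for canonical intron 1 and in grey otherwise. Regions of EXT1 lie almost all in intron 1, whereas the 30 of FRMD4A lie in later introns or upstream of the canonical start site. Intron 1 of FRMD4A spans 0.413 kb, which left little or no room for a region under the distance rule.

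Marking of the host's own promoter was then compared. Of the 4750 hosts in all 3 lists, 3613 (76.1%, 74.8 to 77.3%) had a marked promoter in all 3 lists, 943 (19.9%, 18.7 to 21.0%) had none in any list and 194 were mixed. Among all 16913 genes 61.4% were marked and 34.7% unmarked, and among the 10744 genes that hosted in no list 53.2% and 43.1%. The unmarked share was 16.5% (15.1 to 18.1%) of hosts with at least 2 shared regions, 12.9% (10.4 to 15.8%) with at least 5 and 12.2% (7.53 to 19.1%, 15 of 123) with at least 10. Taken list by list, 22.1%, 21.2% and 22.8% of hosts had an unmarked promoter in the same list.

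Gene length was then taken into account. Of genes with 5 to 20 kb of eligible intron, 13.9% (12.7 to 15.3%) of marked and 6.71% (5.61 to 8.01%) of unmarked genes were hosts in all 3 lists. At 50 to 100 kb the shares were 58.2% (55.8 to 60.5%) and 30.9% (27.5 to 34.5%), at 100 to 200 kb 75.3% (72.6 to 77.9%) and 36.8% (32.7 to 41.2%), and over 500 kb 89.8% (82.7 to 94.2%) and 52.4% (44.3 to 60.5%). Marked genes were above unmarked ones in each class of length over 5 kb, with intervals that did not overlap. Shared regions lay at 14.8 per Mb in marked and 4.74 per Mb in unmarked genes.

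**Figure D4:**
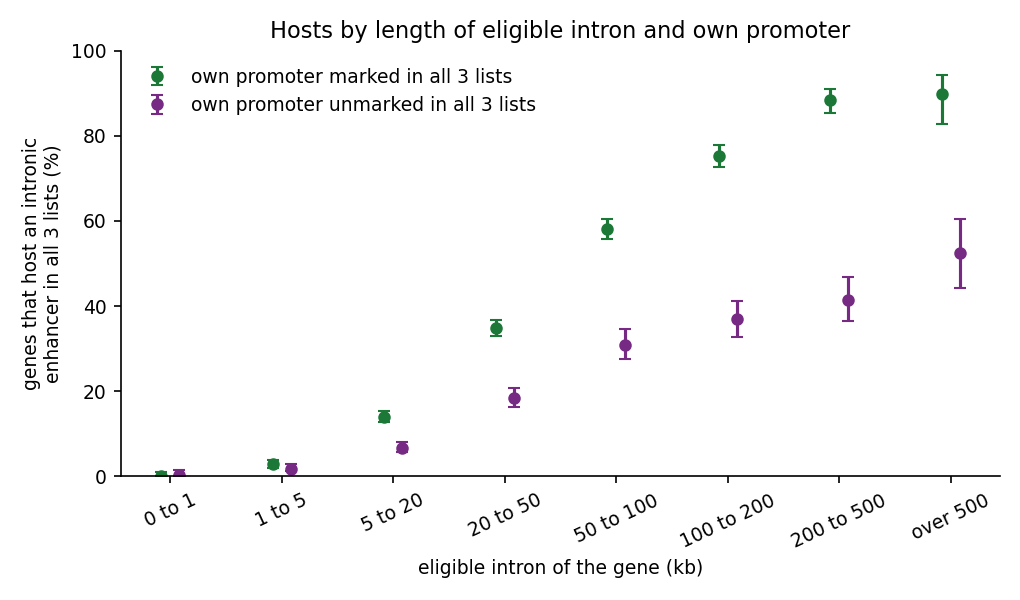
Share of protein-coding genes that host an intronic enhancer in all 3 lists (y axis, percent) by the length of their eligible intron (x axis, kb), for genes with a promoter marked in all 3 lists and unmarked in all 3 lists. Points are shares and bars are 95% Wilson intervals, which cover counting error only. Marked genes rise from 13.9% at 5 to 20 kb to 89.8% over 500 kb, and unmarked genes from 6.71% to 52.4%.

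The 943 hosts with an unmarked promoter had a median of 76.6 kb of eligible intron, close to the 71.3 kb of marked hosts, and both had a median of 1 shared region. In 61 of them every shared region was also in an intron of a marked gene. In 248 a peak lay within 1 kb of a start site annotated outside the basic set, which leaves 695 hosts with no peak at any annotated start site. For 1761 shared regions whose hosts were all unmarked, the nearest start site marked in all 3 lists was a median of 172 kb away (interquartile range 75.3 to 366 kb), and 67.1% were over 100 kb from it. For 8717 regions whose hosts were all marked, this distance was 40.4 kb (17.3 to 85.1 kb), and in 83.2% (82.4 to 84.0%) the nearest such site belonged to the host. An unmarked host has no such site of its own by definition, so part of this gap in distance follows from the grouping. The lowest fold enrichment over the lists had medians of 4.36 and 4.44 in these 2 sets, and the median region width was 1523 and 1840 bp.

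FRMD4A headed the unmarked hosts as well. None of its 4 basic start sites carried a peak within 1 kb in any list, and the marked start site nearest to its strongest region was that of BEND7 at 352 kb. It was, however, among 4 of the 10 leading unmarked hosts, with KCNMA1, AFF3 and PLXNA4, in which a start site outside the basic set lay within 1 kb of a peak. Next came ENSG00000285708, which shares its regions with the marked gene FOXP1. TMEM132D, which encodes a transmembrane protein (chromosome 12, 129071725 to 129904025), had 21, 21 and 22 peaks and 20 shared regions, 5 of them in intron 1. The marked start site nearest to its strongest region was that of SLC15A4 at 747 kb. KCNMA1, the pore-forming subunit of the BK potassium channel (chromosome 10, 76869601 to 77638369), had 20, 22 and 21 peaks, with 11 of 17 shared regions in intron 1. AFF3, which encodes a nuclear protein, had 19, 21 and 20 peaks. Despite the like counts, these covered 30.5 kb in the MDA-MB-231 list compared with 52.3 and 47.4 kb in the Hs578T lists.

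CUBN, which encodes the vitamin B12 receptor cubilin of kidney and intestine, had 18, 19 and 17 peaks. Its strongest region spanned 8825 bp of intron 27 (chromosome 10, 17022159 to 17030983), with fold enrichments of 23.6 and 25.2 in the first 2 lists. SYN3, a synapsin of nerve terminals, had 15, 14 and 15 peaks, and PLXNA4, a receptor of semaphorins, had 14, 16 and 13. MCF2L2, an exchange factor of the DBL family, had 13, 14 and 14 peaks. GALNTL6, a relative of the GalNAc transferases that start O-glycosylation, had 11, 14 and 13 over 1213 kb of eligible intron, and its strongest region was 1288 kb from the nearest marked start site, that of GALNT7. Counts in these 10 genes differed by at most 3 peaks between lists, except in FRMD4A and ENSG00000285708. The strongest shared region in any unmarked host lay in VAV1, an exchange factor of blood cells, with fold enrichments of 40.4, 46.6 and 35.3 (chromosome 19, 6799867 to 6803727, intron 1).

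Gene lists of pathways tied to the study were examined in the same way, beside 28.1% of genes that hosted in all 3 lists, 10.8 shared regions per Mb, a median of 0 shared regions and a median of 22.9 kb of eligible intron over all genes. Genes with a marked promoter and longer introns were hosts more often. Of marked genes with 20 to 50 kb of eligible intron 34.8% were hosts, at 14.7 regions per Mb. With 50 to 100 kb these values were 58.2% and 16.3 per Mb. No list was tested against these shares. Of 23 TGF-beta pathway genes, 15 were hosts in all 3 lists, with 29.7 regions per Mb, a median of 1 region and a median of 74.7 kb of eligible intron. The latent TGF-beta binding protein gene LTBP1 had 11, 14 and 13 peaks, the ligand gene TGFB2 8, 13 and 15, the inhibitory SMAD6 6, 9 and 8, the co-receptor gene TGFBR3 8, 9 and 8, and the receptor gene TGFBR2 6, 5 and 5. Of 16 Hippo pathway genes with eligible intron, 9 were hosts (29.9 per Mb, median 1, 73.1 kb). The transcription factor gene TEAD1 held 11, 13 and 15 peaks, the co-activator genes YAP1 and WWTR1 7, 8 and 8 and 11, 13 and 16, and the kinase gene STK4 8, 7 and 7. No intronic enhancer was called in TEAD2, TEAD3 or TEAD4.

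Among genes of the TWEAK receptor and NF-kB pathway 7 of 18 were hosts (21.0 per Mb, median 0, 28.9 kb), among them the kinase gene MAP3K14 with 4, 8 and 5 peaks, IKBKB with 5, 4 and 4 and TRAF3 with 3, 4 and 3. RELA and RELB held none in any list, and TNFRSF12A, which encodes Fn14, has no intron that met the distance rule. Of 14 genes of AP-1 subunits and JNK kinases with eligible intron 7 were hosts (22.7 per Mb, median 0.5, 26.3 kb), with MAP3K5 at 6, 4 and 4 peaks and MAP2K4 at 4, 4 and 4, and FOSL2, ATF2 and ATF3 were the subunit genes among them. Of 32 actin and focal adhesion genes 22 were hosts (22.1 per Mb, median 2, 78.9 kb). PALLD had 25, 26 and 26 peaks, the zyxin relative LPP 22, 26 and 23 and the integrin gene ITGB5 8, 8 and 8. All hosts in the NF-kB, AP-1, Hippo and actin lists had a marked promoter, as did 14 of 15 in the TGF-beta list, where that of LTBP2 was marked in 2 lists. Over all hosts 76.1% were marked. Nearly every listed gene was marked whether a host or not, with 20 of 20 NF-kB, 19 of 20 AP-1, 18 of 18 Hippo, 31 of 32 actin and 22 of 23 TGF-beta genes, so these counts are not particular to the hosts.

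Receptor tyrosine kinases and genes of other lineages were counted beside the 19.9% of all hosts with an unmarked promoter. Promoters were marked in all 3 lists in 15 of 27 listed receptor tyrosine kinase genes, 5 of 22 long neuronal genes, 6 of 16 luminal and epithelial genes and 2 of 16 blood and immune genes, hosts or not, and no difference between lists of genes was tested. Of 27 receptor tyrosine kinase genes 15 were hosts (14.0 per Mb, median 1, 102 kb), led by ROR1 (15, 16 and 16 peaks), IGF1R (14, 14 and 15), EGFR and MET (7, 7 and 8). Among them 5 had no promoter peak in any list, namely ERBB4 (5, 4 and 5 peaks), DDR2 (3, 5 and 3), NTRK2 (2, 2 and 2), PDGFRA (1, 1 and 1) and ALK (1, 1 and 1, with no shared region). Of 22 long neuronal genes 13 were hosts, 8 of them unmarked, but with a median of 1114 kb of eligible intron they held 1.39 regions per Mb (median 1). KCNIP4, a potassium channel subunit, had 10, 11 and 10 peaks without a promoter peak, and SYT1, a synaptotagmin with a marked promoter, had 8, 9 and 7.

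In luminal and epithelial genes 6 of 14 were hosts, 4 of them unmarked (15.5 per Mb, median 0, 34.5 kb). CDH1, which encodes E-cadherin, held 6, 5 and 6 peaks, ESR1, the oestrogen receptor gene, 3, 5 and 4, and GATA3 3, 3 and 2. Of 16 blood and immune genes 5 were hosts, 4 of them unmarked (10.5 per Mb, median 0, 60.2 kb). EBF1, a B-cell factor, held 9, 10 and 9 peaks, PAX5 5, 2 and 2, BLK 2, 2 and 2 and PTPRC, which encodes CD45, 1, 1 and 1. The strongest shared regions of BLK (fold enrichments of 19.5 and 16.9 in the Hs578T lists), PTPRC (16.4, 16.6 and 15.3) and EBF1 (8.51, 11.9 and 8.79) were above the upper quartile of intronic enhancers in each list (7.56, 7.02 and 6.58). Those of PAX5 (7.06, 4.47 and 4.94) and of CD247, the host with a marked promoter (3.67, 3.49 and 3.77), were below it in each list. Each value is the highest over the shared regions of a gene, while the quartile is of single peaks, shared or not. Hosts with more shared regions were thus more likely to pass it, with 8 in EBF1, 2 in BLK and 1 in each of the others. RNA was not analysed here, so these peaks give no level of expression of their hosts.

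Sequence was last compared between classes of intronic enhancers. The AP-1 motif TGAGTCA, searched on both strands, occurred within the central 500 bp of 33.3% (32.5 to 34.1%), 31.2% (30.5 to 32.0%) and 31.5% (30.7 to 32.3%) of intronic enhancers. Of 1813543 windows of 500 bp in eligible intron that overlapped no peak of any list, 7.03% held it. Intronic enhancers were richer in GC (44.6%, 44.5% and 44.3% compared with 40.7%), and at the GC content of the enhancers 7.26%, 7.25% and 7.26% of peak-free windows held the motif, which gave ratios of 4.58, 4.31 and 4.33. Distal peaks outside protein-coding introns and exons held it at 35.1%, 34.6% and 34.0%, and promoter peaks at 10.9% to 11.1%. The TEAD motif GGAATG, searched on both strands and counted apart from the first, was found in 33.5%, 32.1% and 32.9% of intronic enhancers and in 24.1% of peak-free windows, with ratios of 1.37, 1.31 and 1.34 at the same GC content.

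The share with an AP-1 motif was also computed by the state of the host's promoter. Intronic enhancers whose hosts were all unmarked held it at 39.7% (37.6 to 41.8%), 35.7% (33.7 to 37.6%) and 36.1% (34.1 to 38.1%). Those whose hosts were all marked in all 3 lists held it at 31.9% (31.0 to 32.8%), 30.1% (29.3 to 30.9%) and 30.4% (29.6 to 31.3%). The share was higher in the unmarked set in each list and the intervals did not overlap, although they treat peaks of 1 library as independent. The ratios at the same GC content were 5.48, 4.93 and 4.97 compared with 4.39, 4.15 and 4.19. Whether this share depends on distance to a promoter or on peak width was not tested. Shared regions of unmarked hosts were narrower, with a median of 1523 bp compared with 1840 bp for marked hosts. In canonical intron 1 the motif was found at 31.9%, 29.8% and 30.6% and in later introns at 33.6%, 31.7% and 31.4%, with intervals that overlapped in each list. In the central 500 bp the share was not ordered by strength. The strongest 20% held the motif at 29.2%, 28.5% and 28.5% and the weakest 20% at 29.4%, 25.5% and 25.6%, all below the share of all intronic enhancers. The strongest 20% were wider, with medians of 2968, 3019 and 2935 bp compared with 607, 591 and 584 bp. The window thus covered a smaller part of them, and peak width was not taken into account.

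**Figure D5:**
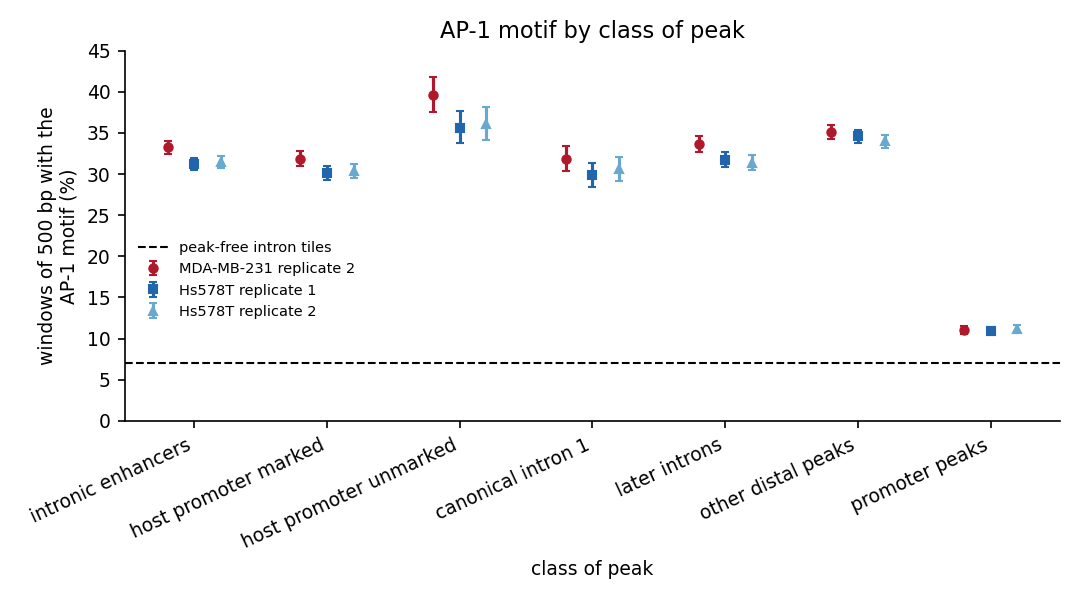
Share of 500 bp windows at the middle of peaks that hold the AP-1 motif (y axis, percent) by class of peak (x axis) in each of the 3 lists (symbols), with 95% Wilson intervals, which cover counting error only. The dashed line is the share in peak-free windows of eligible intron, 7.03%, and enhancers with an unmarked host have the highest values, at 39.7%, 35.7% and 36.1%, with intervals that overlap those of other distal peaks in the Hs578T lists.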

How the data were processed

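H3K27ac was profiled by ChIP-seq in 4 samples, and 3 of their peak lists were used. The authors trimmed reads with Trimmomatic, mapped them to hg38 with Bowtie2, called peaks per sample with MACS2 with input subtraction and removed blacklisted regions with bedtools. Versions and settings are not given in the sources used here. Per deposited list, the authors' MACS2 values are a score, a fold enrichment (ratio of signal to local background), and −log10 of the p-value and q-value. The authors deposited no read counts in these lists, so depth is unknown.

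Introns, exons and start sites came from GENCODE 44. Promoter peaks, distal peaks and intronic enhancers were separated by distance and midpoint, and regions were joined at 1 bp of overlap. Intron density was counted over bases outside exons and over 2.5 kb from every start site. Peaks had to clear that distance with their nearest edge, so bases just beyond it could hold few midpoints. Motifs were searched in the central 500 bp and in peak-free tiles of 500 bp, weighted to the peaks' GC content in bins of 2 percentage points. Printed windows of 200 bp hold the most AP-1 motifs in sequence covered in all 3 lists, with ties going to motifs nearest the middle of the window and then to the window nearest the middle. Python 3.11.15, NumPy 2.4.6, SciPy 1.17.1, pysam 0.24.0 and samtools 1.23.1 were used, and the counting was tested on simulated data. Intervals are 95% Wilson intervals.

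Members and gene lists were chosen with earlier results of these data known. Genes were named by rule: the 10 hosts with the most regions shared by all 3 lists, the 5 densest with at least 5, the 10 leading hosts with an unmarked promoter, the 10 regions with the highest lowest fold enrichment, the 5 hosts in each direction where the lists labelled by line differed most, the 5 leading hosts for intron 1 and for later introns, and members of 9 gene lists. Alternatives were a stricter score, equal numbers of peaks, other start sites and distances, whole peaks, single hosts, other promoter windows, leaving out each list and adding the list labelled MDA-MB-231 replicate 1 to the mean count. Certain items are not reported here.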

Additional observations from a re-analysis of the deposited data

Results flagged for a closer look

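The list labelled MDA-MB-231 replicate 1, which was used only in 1 alternative of the mean count, held 85 intronic enhancer peaks among its 209 peaks, and 25 of them overlapped an intronic enhancer of one of the 3 lists used. It was singled out because that list was not part of the main counts.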

How the results depend on the processing

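Of 76 alternative values, 55 stayed within the spread of the lists or within 1.5 times the main count, 20 moved and 1 reversed. For results with a value per list, leaving out a list averages the remaining values, so these were bound to stay. Among the 55 is also the mean count with the list labelled MDA-MB-231 replicate 1 added, at 10742. Adding 1 short list to 3 cannot bring the mean below the limit of 1.5 times, so this value too was bound to stay. Means over the 3 lists were 14294 intronic enhancers, 50.1% of distal peaks, a first-to-later ratio of 1.35 (1.24 at like distances) and 32.0% with an AP-1 motif. With the strongest 50% of each list by score there were 5516 intronic enhancers, 47.6% of distal peaks, 4517 shared regions and 2638 hosts, with ratios of 1.40 and 1.34 at like distances. The share of distal peaks was 49.7% with equal numbers of peaks, 50.6% with canonical start sites, 50.5% over 5 kb, 49.2% with all transcripts and 42.5% for peaks wholly in introns. The ratio was 1.36 with canonical start sites, 1.36 over 5 kb, 1.63 for peaks wholly in introns, 1.37 in hosts of all 3 lists and 1.52 in genes with a marked promoter. At like distances it was 1.61, 0.910 and 1.46 in the last 3 of these, below 1 in hosts of all 3 lists, and 1.29 by distance from the nearest start site of any gene. The alternative of peaks wholly in introns kept the same eligible bases. Stretches of intron too short to hold a whole peak were thus still counted, so its ratios are not like for like with the others. In the central 1000 bp 46.0% held an AP-1 motif. The cause was not tested. Hosts with an unmarked promoter numbered 695 with any annotated start site as the promoter, an alternative chosen after seeing the data, to 1121 with the canonical start site alone. Leaving out each list in turn gave 11536 to 12403 shared regions, 4873 to 5118 hosts and 1010 to 1051 unmarked hosts. No paired analysis was possible because the values come from no test and the lines share 1 replicate number among the lists used. Depth is unknown, so a gene without a peak in a list may hold one below the caller's threshold.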
